A study of Homo sapiens with 24 samples.

Results

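Unfolded protein and amino acid stress genes are the genes that a cell induces when proteins misfold in the endoplasmic reticulum (ER) or when amino acids run short. A list of 40 such genes was followed in L1236 cells, an established line grown from a Hodgkin lymphoma and derived from B cells. All 40 members had a transcript cluster, the set of probes that stands for a transcript locus, with a single gene symbol. They were 40 of the 18417 genes so covered by the array, and all 40 were tested in both experiments. The members were listed by name, and the list was chosen with earlier results of these data known.

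Expression was measured on 24 Affymetrix Human Gene 1.0 ST arrays, 12 in each of 2 experiments. In experiment 1, small interfering RNAs (siRNAs) against NFKB1 (1 µM, 3 days) and RELA (500 nM, 2 days) formed the p50/RelA knockdown (KD). In experiment 2, siRNAs against RELB (1 µM, 3 days) and NFKB2 (500 nM, 2 days) formed the p52/RelB KD. NFKB1 encodes p105 and its product p50, and NFKB2 encodes p100 and its product p52. Harvest followed 1 day later. Either experiment had its own arm of control siRNA, and an arm held 6 arrays, since 2 siRNA sequences were used in 3 replicates. All arms, controls included, took up siRNA in medium with little serum, and all came from a single cell line. Levels are deposited log2 values, a difference is KD minus control on the log2 scale with its standard error (SE), and a gene was called where the Benjamini-Hochberg adjusted p of limma lay below 0.05 with a difference of at least 10%.

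The targeted mRNAs fell in their own experiment. NFKB1 fell by 1.92 ± 0.12 and RELA fell by 1.39 ± 0.09 in the p50/RelA KD, while NFKB2 fell by 1.34 ± 0.04 and RELB fell by 0.29 ± 0.05 in the p52/RelB KD. Of the other pair, NFKB2 fell by 0.19 ± 0.04 (adjusted p = 0.0457) in the p50/RelA KD and NFKB1 rose by 0.15 ± 0.04 (adjusted p = 0.0374) in the p52/RelB KD, while RELB and RELA were not called there. All 6 Hodgkin cell markers on the list (TNFRSF8, CCL17, CCL22, FSCN1, IRF4 and TRAF1) passed the filter on low values in both experiments. Of 5 B cell markers, 4 had a cluster with a single symbol, and 3 of these passed in both experiments. Markers of other cell types passed as well, 4 of 5 for fibroblasts, endothelium and epithelium in both experiments, 2 and 4 of 5 for T and NK cells and 1 and 2 of 4 for myeloid cells in experiments 1 and 2, and the values carry no detection call. Array medians of experiment 1 were 6.94 to 6.99 and those of experiment 2 were 7.39 to 7.51, so levels were not compared between the experiments. The p52/RelB KD array of sequence 2 in replicate 3 stood furthest apart, with a mean correlation of 0.986 to the other arrays of its own arm.

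Misfolded protein in the ER is sensed by the kinases IRE1 (ERN1) and PERK and by the membrane-bound factor ATF6. IRE1 splices the mRNA of XBP1, and ATF6 is cut and moves to the nucleus, where both factors induce chaperones and the machinery of ER-associated degradation. PERK and other kinases, among them the amino acid sensor GCN2, phosphorylate eIF2α, which favours translation of the transcription factor ATF4. ATF4 then induces further factors, amino acid carriers, enzymes of serine, folate and asparagine synthesis, and genes that feed back on the response. Plasma cells, the secreting end of the B lineage, depend on the XBP1 branch.

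Some members carry in their promoters the elements through which these factors are known to act, and a few such stretches are shown. RefSeq windows of GRCh38.p14, from 250 bases before to 50 bases after each start, were found for 37 of the 40 members. These 37 had 55 windows in all, since 13 members had several. The ER stress element, CCAAT and CCACG 9 bases apart on either strand, lay in 27 of 35116 windows (0.0769%). Of these 27, 8 windows belonged to members, 3 of them to CANX alone. The 6 genes were HSPA5, HSP90B1, PDIA6, CALR, CANX and CRELD2, all of them among the 12 ER chaperone and folding genes. The element is in capitals in the following stretches, which are read along the gene, 5′ to 3′. Where it lies on the opposite strand, it begins with the reverse complement of CCACG. HSPA5 was read from chr9:125241379-125241421 (minus strand), HSP90B1 from chr12:103930204-103930246 (plus strand), CALR from chr19:12938372-12938414 (plus strand) and CRELD2 from chr22:49918542-49918584 (plus strand).
HSPA5: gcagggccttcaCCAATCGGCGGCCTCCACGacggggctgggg
HSP90B1: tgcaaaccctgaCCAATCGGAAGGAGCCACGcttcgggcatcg
CALR: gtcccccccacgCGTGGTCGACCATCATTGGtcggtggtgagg
CRELD2: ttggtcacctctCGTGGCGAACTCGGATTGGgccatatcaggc

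HYOU1 was the single member with TGACGTGG, an element bound by XBP1 and ATF6 that 0.729% of all windows held on either strand. The element of ATF4 and its C/EBP partners, TGATGNAA on either strand, lay in 3.62% of all windows and in 7 of the 55 member windows. These belonged to 7 members, namely ATF3, CEBPG, CHAC1, ASNS, SLC3A2, CREB3L2 and HERPUD1. HYOU1 was read from chr11:119057374-119057405 (minus strand), HERPUD1 from chr16:56931954-56931985 (plus strand), CHAC1 from chr15:40953250-40953281 (plus strand) and ASNS from chr7:97872457-97872488 (minus strand). Capitals mark the element, which lies on the opposite strand in HERPUD1 and CHAC1.
HYOU1: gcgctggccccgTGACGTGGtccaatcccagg
HERPUD1: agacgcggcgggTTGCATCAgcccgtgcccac
CHAC1: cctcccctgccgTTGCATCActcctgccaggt
ASNS: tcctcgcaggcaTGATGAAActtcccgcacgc

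The κB motif, to which NF-κB dimers bind, lay in 11.3% of all windows and in 8 of the 55 member windows. These belonged to 8 members, ATF5, CEBPB, SESN2, CANX, CRELD2, MANF, EDEM1 and SYVN1. A match of letters is not a binding site, and an element outside these windows was not looked for.

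**Figure D1:**
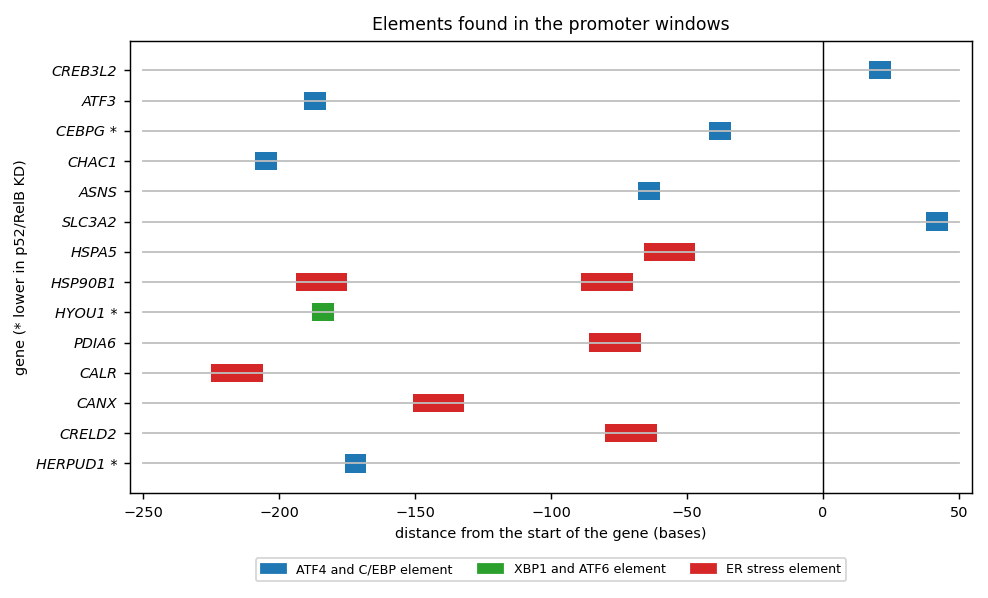
Position of the ER stress element (red), the XBP1 and ATF6 element (green) and the ATF4 and C/EBP element (blue) in promoter windows of 14 members, with the distance from the start of the gene in bases on the x axis (for genes with several windows, a single window with the element is drawn). Asterisks mark genes called lower in the p52/RelB KD, which called 7 of all 40 members. Red bars are seen in 6 chaperone and folding genes, none of which has an asterisk.

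The p50/RelA KD called none of the 40 members. Over all 14672 clusters tested in that experiment it called 1.07%, with 0.825% lower and 0.245% higher. At an unadjusted p below 0.05, limma found 7 members, 6 lower and 1 higher, against 10.5% of all clusters. The differences were small and mostly negative, with 35 members below zero, 5 above zero and a median of -0.04, beside a median of 0.00 over all clusters tested. The mean over the 40 members was -0.01, -0.10 and -0.06 in replicates 1, 2 and 3. In replicate 1, 22 of the 40 lay below zero with sequence 1 and 20 with sequence 2. In 10 members all 6 KD arrays lay below the mean of the control arrays of their replicate, and in 1 member all 6 lay above it, where 5.65% and 5.70% of all clusters did so.

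PPP1R15A (GADD34), the phosphatase subunit that reverses eIF2α phosphorylation, had the largest difference in the p50/RelA KD. Its level lay between 9.56 and 10.04 in the control arrays (median 9.79) and between 9.38 and 9.64 in the KD arrays (median 9.45). The arms overlapped, through the KD array of sequence 2 in replicate 3 and the lower control arrays. The difference was -0.33 ± 0.07 (95% interval -0.49 to -0.17), and the adjusted p of 0.0564 missed the threshold. All 6 KD arrays lay below the mean of the controls of their replicate, by 0.17, 0.61 and 0.20 on average in replicates 1, 2 and 3, although sequence 2 of replicate 3 (9.64) was above the lower control of that replicate (9.62).

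ATF4, the factor at the centre of the amino acid branch, did not move in 1 direction in the p50/RelA KD. Its level lay between 10.33 and 10.83 in the controls (median 10.59) and between 10.43 and 10.68 in the KD (median 10.55). The replicates gave differences of -0.04, -0.29 and 0.19, and the mean was -0.04 ± 0.07 (95% interval -0.19 to 0.11). The next lowest adjusted p-values belonged to DNAJB9 (ERdj4), a co-chaperone of BiP induced by XBP1, at -0.14 ± 0.04 (adjusted p = 0.115), and to the ATF4 feedback gene TRIB3 at -0.11 ± 0.04 (adjusted p = 0.242).

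**Figure D2:**
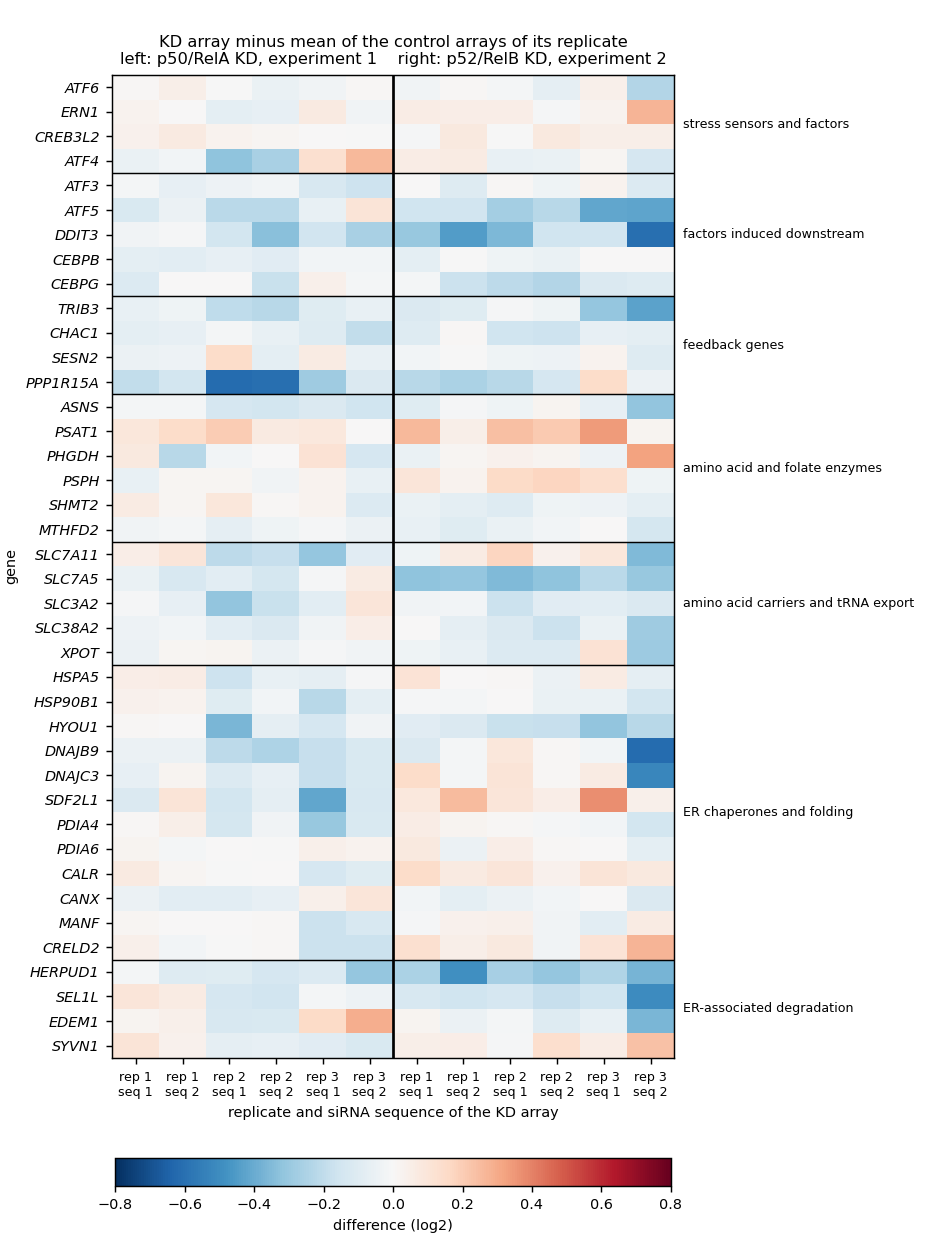
Difference of each KD array from the mean of the control arrays of its replicate, in log2 units (colour, blue lower and red higher), for the 40 genes ordered by role (rows) and the 6 arrays of each KD (columns, by replicate and siRNA sequence). Rows of SLC7A5, HERPUD1, DDIT3 and ATF5 are blue in all 6 p52/RelB KD columns, and PSAT1 is red or near zero in all 12 columns.

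The p52/RelB KD called 7 of the 40 members lower and none higher. Over all 16101 clusters tested it called 9.68%, with 5.75% lower and 3.93% higher. The 7 were the transcription factors ATF5, DDIT3 and CEBPG, the carrier SLC7A5, the chaperone HYOU1, and HERPUD1 and SEL1L of ER-associated degradation. Of the members, 28 lay below zero and 12 above zero, with a median of -0.05 beside 0.02 over all clusters. At an unadjusted p below 0.05, limma found 11 members lower and 5 higher, 16 of the 40 in all, against 22.8% of all clusters. In 10 members all 6 KD arrays lay below the control mean of their replicate and in 3 members above it, where 11.3% and 10.1% of all clusters did so.

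The arms did not overlap in 5 members, with every KD array below every control array in ATF5, SLC7A5, HYOU1 and HERPUD1 and above in CALR. Over all clusters tested, 3.17% lay wholly below and 2.10% wholly above. Since RNA was measured in bulk, fewer responding cells and less mRNA in each cell cannot be told apart. Replicates 1 and 2 of experiment 2 shared a scan batch and replicate 3 had another, and the mean of the KD arrays lay below that of the controls in each replicate for all 7 called members.

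**Figure D3:**
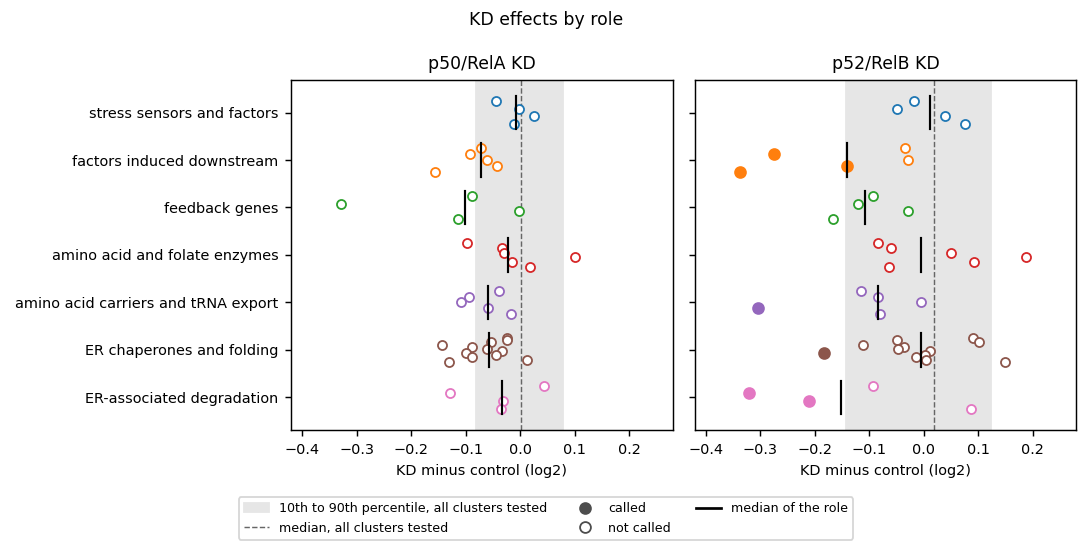
Difference of each gene (x axis, KD minus control, log2) by role for the p50/RelA KD and the p52/RelB KD. Filled points are called genes, black bars are medians of a role, and the grey band spans the 10th to the 90th percentile of all clusters tested. Called genes appear only in the p52/RelB KD, where the 7 filled points lie below zero.

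Among the sensors and central factors, none of 4 was called in the p52/RelB KD. ERN1, the kinase and nuclease IRE1, differed by 0.08 ± 0.05, ATF6 by -0.05 ± 0.05 and CREB3L2, a membrane-bound factor related to ATF6, by 0.04 ± 0.03. ATF4 had 2 transcript clusters with its symbol, and they disagreed. In the brighter cluster, which was chosen by the rule, levels lay between 11.25 and 11.42 in the controls (median 11.30) and between 11.22 and 11.44 in the KD (median 11.31). The arms overlapped fully, and the difference was -0.02 ± 0.04 (95% interval -0.10 to 0.07, adjusted p = 0.814).

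In the second ATF4 cluster, which the platform annotation assigns to another transcript record of the gene, levels lay between 10.21 and 10.38 in the controls (median 10.30) and between 10.42 and 10.74 in the KD (median 10.58). Every KD array lay above every control array, and the difference was 0.28 ± 0.05 with an adjusted p of 0.00329. The same cluster differed by -0.02 ± 0.04 in the p50/RelA KD. Whether ATF4 mRNA changed in the p52/RelB KD therefore depended on the cluster, and why the clusters disagree was not tested. Applied to the limma calls used here, the study's rule, by which any called cluster calls its gene, would add ATF4 as higher to the 7 members. The study itself called clusters by a t-test. MTHFD2 and PSPH also had a second cluster each, and neither was called in either KD. PSPH came nearest in the p52/RelB KD, at 0.09 ± 0.04 in the chosen cluster and at 0.17 ± 0.05 (adjusted p = 0.0501) in the other.

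Of the 5 transcription factors induced downstream, 3 fell in the p52/RelB KD. DDIT3 (CHOP), a C/EBP family factor known for its part in death after prolonged ER stress, lay between 9.85 and 10.31 in the controls (median 10.19) and between 9.57 and 10.13 in the KD (median 9.75). The arms overlapped through the controls of replicate 2 and the KD array of sequence 1 in replicate 3. DDIT3 fell by 0.34 ± 0.07, to 79.1% of the control level (adjusted p = 0.0117), and the replicates gave -0.38, -0.26 and -0.38. Its difference in the p50/RelA KD was -0.16 ± 0.06 (adjusted p = 0.301), and the effects of the 2 KDs were not called different (adjusted p = 0.368).

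ATF5, an ATF4-related factor whose translation also rises with eIF2α phosphorylation, lay between 12.55 and 12.66 in the controls (median 12.58) and between 12.15 and 12.45 in the KD (median 12.38). The arms did not overlap, and both arrays of replicate 3 were the lowest of the KD. ATF5 fell by 0.27 ± 0.05, to 82.7% of the control level (adjusted p = 0.00239), with -0.16, -0.25 and -0.42 in replicates 1, 2 and 3. CEBPG, a C/EBP factor that pairs with ATF4, lay between 9.91 and 10.11 in the controls (median 9.99) and between 9.75 and 9.98 in the KD (median 9.85). The arms overlapped, and CEBPG fell by 0.14 ± 0.04 (adjusted p = 0.0412), just past the minimum difference, with -0.09, -0.22 and -0.11 in replicates 1, 2 and 3. This call was lost in 9 of the 12 fits that left out a single array, among them the fit without control sequence 1 of replicate 3, where the adjusted p was 0.0604. ATF3 and CEBPB differed by -0.03 ± 0.04 and -0.03 ± 0.03 and were not called.

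None of the 4 feedback genes was called in the p52/RelB KD, and all 4 lay below zero. TRIB3, a pseudokinase that restrains ATF4, came nearest with -0.17 ± 0.06 (adjusted p = 0.109), and its replicates gave -0.11, -0.02 and -0.37. PPP1R15A differed by -0.12 ± 0.06, CHAC1, which degrades glutathione, by -0.09 ± 0.04 and SESN2, an inhibitor of mTORC1 signalling, by -0.03 ± 0.04.

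SLC7A5 (LAT1), the carrier that brings leucine and other large neutral amino acids into the cell, showed the lowest adjusted p of the members. Its level lay between 11.26 and 11.58 in the controls (median 11.39) and between 10.99 and 11.26 in the p52/RelB KD (median 11.08). The arms did not overlap, although the highest KD arrays, both of replicate 1, came close to the lowest control, of replicate 3. SLC7A5 fell by 0.30 ± 0.03, to 81.0% of the control level (adjusted p = 0.000137), and the replicates gave -0.32, -0.34 and -0.26. In experiment 1 its level lay between 11.19 and 11.32 in the controls (median 11.30) and between 11.15 and 11.28 in the KD (median 11.21), and the difference was -0.06 ± 0.04 (adjusted p = 0.651).

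SLC7A5 was also the single member whose effects differed between the KDs, by -0.24 (p52/RelB minus p50/RelA, 95% interval -0.34 to -0.15, adjusted p = 0.00253), where 4.35% of 14647 clusters tested in both experiments differed. This call rested on the replicate block, since without it the adjusted p was 0.116. The KDs were done in separate experiments with separate scan batches, so a difference between KDs cannot be told apart from a difference between experiments. SLC3A2, the heavy chain that anchors SLC7A5 in the membrane, lay below the control mean of the replicate in all 6 KD arrays, but it was not called (-0.08 ± 0.03, adjusted p = 0.151). SLC38A2, a carrier of small neutral amino acids, differed by -0.11 ± 0.05, XPOT, the exporter of tRNA from the nucleus, by -0.08 ± 0.06 and SLC7A11, the cystine carrier, by 0.00 ± 0.09.

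None of the 6 enzymes was called in either KD. PSAT1, an aminotransferase of serine synthesis, lay above zero in both KDs. Its level lay between 10.80 and 11.08 in the controls (median 10.97) and between 10.99 and 11.38 in the p52/RelB KD (median 11.11). The arms overlapped, but all 6 KD arrays lay above the control mean of their replicate, and the difference was 0.19 ± 0.06 (adjusted p = 0.0716). All 6 arrays of the p50/RelA KD lay above their control mean as well, with a difference of 0.10 ± 0.04 (adjusted p = 0.405). PHGDH and PSPH, which act before and after PSAT1 in the same path, differed by 0.05 ± 0.06 and 0.09 ± 0.04 in the p52/RelB KD. ASNS, which makes asparagine, differed by -0.08 ± 0.05, and SHMT2 and MTHFD2 of mitochondrial folate metabolism by -0.06 ± 0.03 each.

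The 12 ER chaperone and folding genes lay on both sides of zero in the p52/RelB KD, 6 below and 6 above, with a median of -0.01. HYOU1 (GRP170), a nucleotide exchange factor of BiP, was the single member of the group to fall. Its level lay between 11.03 and 11.13 in the controls (median 11.07) and between 10.77 and 10.95 in the KD (median 10.91). The arms did not overlap, the lowest KD array being sequence 1 of replicate 3, and HYOU1 fell by 0.18 ± 0.04, to 88.1% of the control level (adjusted p = 0.00866). The replicates gave -0.10, -0.18 and -0.27.

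HSPA5 (BiP), the central chaperone of the ER and a usual marker of ER stress, lay between 12.45 and 12.59 in the controls (median 12.51) and between 12.45 and 12.63 in the p52/RelB KD (median 12.50). The difference was 0.01 ± 0.04, with a 95% interval of -0.07 to 0.10. HSP90B1 (GRP94), PDIA4, PDIA6, CANX and MANF differed by between -0.05 and 0.00, and the co-chaperones DNAJB9 and DNAJC3 differed by -0.11 ± 0.09 and -0.04 ± 0.09. CALR, which together with CANX binds sugar chains of folding glycoproteins, lay between 12.05 and 12.11 in the controls (median 12.09) and between 12.14 and 12.22 in the KD (median 12.18). The arms did not overlap, but the difference of 0.09 ± 0.03 was below the minimum and the adjusted p was 0.104. SDF2L1, a partner of BiP, lay above the control mean of the replicate in all 6 KD arrays, with a difference of 0.15 ± 0.06 (adjusted p = 0.167), and differed by -0.13 ± 0.06 in the p50/RelA KD (adjusted p = 0.496), where 5 of 6 arrays lay below that mean.

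The chaperones with the ER stress element in a promoter window, HSPA5, HSP90B1, PDIA6, CALR, CANX and CRELD2, were not called in either KD. Calls were few in any case, at 7 of the 40 members and 9.68% of all clusters in the p52/RelB KD. Their differences in the p52/RelB KD ranged from -0.05 in CANX to 0.10 in CRELD2. Of the 7 called members, HERPUD1 and CEBPG held the ATF4 and C/EBP element, HYOU1 held the XBP1 and ATF6 element and ATF5 held the κB motif, while DDIT3, SLC7A5 and SEL1L held none of these in the windows searched. Of all 37 members with a window, 7 held the ATF4 and C/EBP element and 1 the XBP1 and ATF6 element. The κB motif was held by 8 and the ER stress element by 6. Whether the elements go with the calls was not tested.

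ER-associated degradation, which returns misfolded proteins to the cytosol for the proteasome, had 2 of 4 members lower in the p52/RelB KD. HERPUD1, a membrane protein that helps assemble the HRD1 ligase complex, lay between 10.73 and 10.98 in the controls (median 10.84) and between 10.36 and 10.69 in the KD (median 10.52). The arms did not overlap, and HERPUD1 fell by 0.32 ± 0.05, to 80.0% of the control level (adjusted p = 0.00135). The replicates gave -0.37, -0.29 and -0.30. In the p50/RelA KD all 6 arrays lay below the control mean of their replicate as well, with a difference of -0.13 ± 0.05 (adjusted p = 0.379), and the effects of the KDs were not called different (adjusted p = 0.154).

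SEL1L, the adaptor of the HRD1 ligase, lay between 9.79 and 10.05 in the controls (median 9.88) and between 9.51 and 9.85 in the KD (median 9.69). The arms overlapped through the KD array of sequence 1 in replicate 3, while sequence 2 of that replicate was the lowest of all. SEL1L fell by 0.21 ± 0.06 (adjusted p = 0.0389), with -0.14, -0.16 and -0.33 in the replicates, and the call was lost in 9 of the 12 fits without a single array, for example at an adjusted p of 0.104 without control sequence 1 of replicate 3. SYVN1, which is HRD1 itself, differed by 0.09 ± 0.04 and EDEM1, which hands glycoproteins to degradation, by -0.09 ± 0.06, and neither was called.

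**Figure D4:**
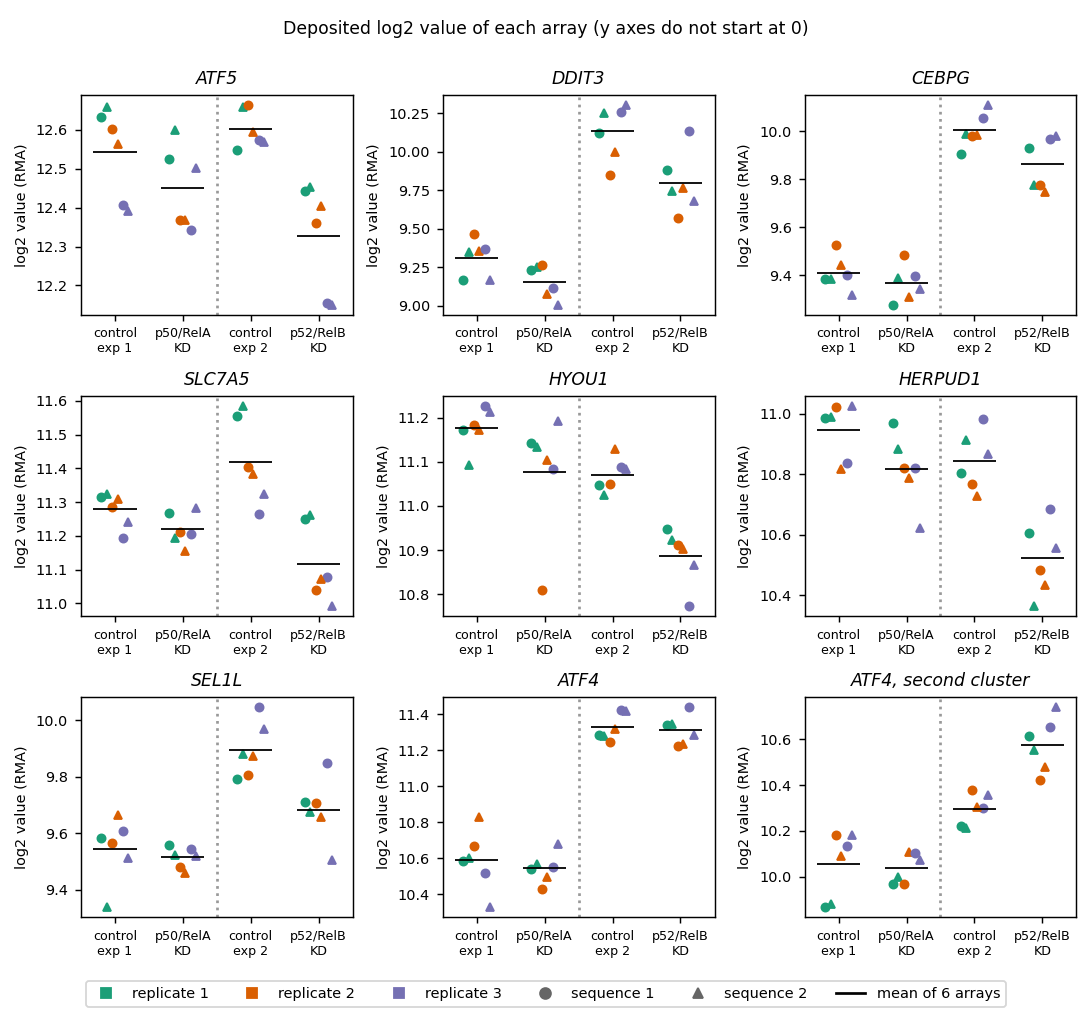
Deposited log2 value of each array (y axis) for the 7 members called in the p52/RelB KD and both ATF4 clusters, by group on the x axis, with colours for replicates, circles and triangles for siRNA sequences 1 and 2, and a line at the mean of 6 arrays. In experiment 2 the arms of ATF5, SLC7A5, HYOU1, HERPUD1 and the second ATF4 cluster do not overlap, the last with the KD above.

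The 20 genes known as ATF4 targets, taken apart from the chaperones, included 4 of the 7 called genes (ATF5, DDIT3, CEBPG and SLC7A5). That is near the share of this list among the members, 20 of 40. In the p52/RelB KD 17 of the 20 lay below zero, with a median of -0.08, where 41.9% of all clusters tested lay below zero. The mean over the target list was -0.08, -0.07 and -0.10 in replicates 1, 2 and 3. The 12 chaperones gave 0.03, 0.00 and -0.05 in the same replicates. The 2 arrays of replicate 3 were unlike. The targets gave -0.03 with sequence 1 and -0.17 with sequence 2, and the chaperones gave 0.02 and -0.12. Sequence 2 of replicate 3 was the array that stood furthest apart. In the p50/RelA KD, 18 of the 20 targets lay below zero with a median of -0.06 and none was called. Of the 12 chaperones, 11 lay below zero with a median of -0.06, where 49.3% of all clusters tested lay below zero. The chaperone mean in the p50/RelA KD was 0.00, -0.08 and -0.12 in replicates 1, 2 and 3, so it did not fall in replicate 1. The target mean was -0.03, -0.11 and -0.06 in these replicates. The target list and the chaperone list were described and not tested.

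**Figure D5:**
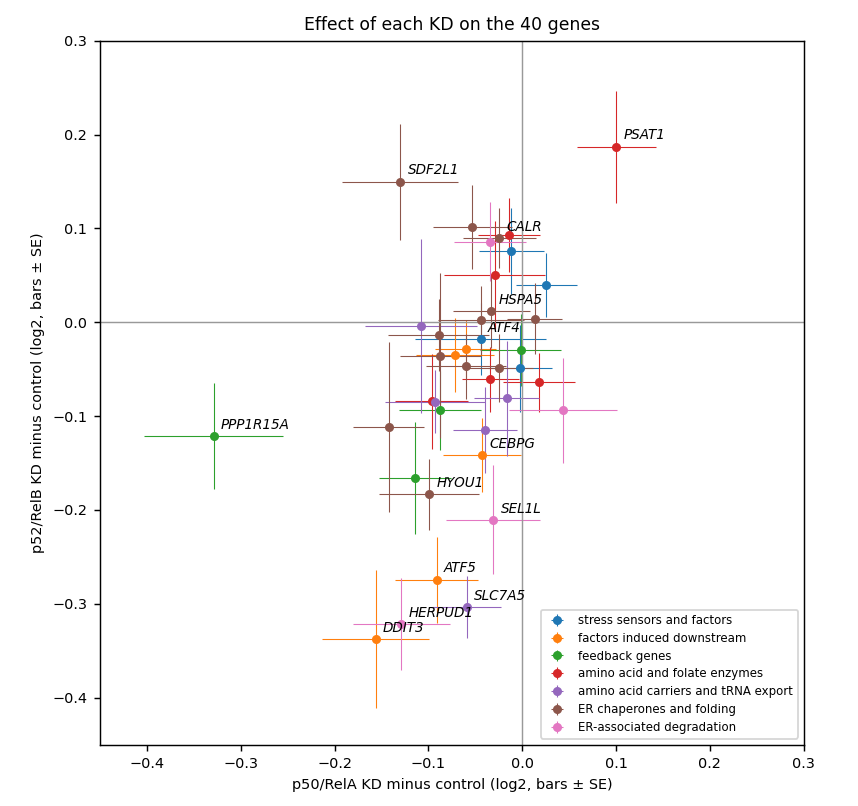
Difference in the p50/RelA KD (x axis) against the difference in the p52/RelB KD (y axis) for the 40 genes, in log2 units with bars of ± 1 SE, coloured by role, each KD with its own controls. SLC7A5, HERPUD1, DDIT3 and ATF5 lie below -0.27 on the y axis, PPP1R15A lies furthest to the left, and PSAT1 is the gene furthest into the upper right.

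No member was called different between the 2 siRNA sequences of a KD, and limma called no cluster at all in that comparison in either experiment (0%). At an unadjusted p below 0.05 it found 2 members in experiment 1 and 3 in experiment 2, beside 3.50% and 9.54% of all clusters. The 3 were DNAJC3, a co-chaperone of BiP that inhibits eIF2α kinases, PSAT1 and the called member HERPUD1. Sequence 2 minus sequence 1 was -0.28 ± 0.10, -0.19 ± 0.07 and -0.14 ± 0.06 in these genes. Against the controls HERPUD1 differed by -0.25 with sequence 1 and by -0.39 with sequence 2. In DNAJC3 sequence 2 lay below sequence 1 in all 3 replicates, with the largest gap in replicate 3, at 8.77 against 9.36.

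Other genes of the pathway, taken from lists that hold no member, were called in the p52/RelB KD about as often as all clusters (9.68%) in 3 of 4 lists. Of 9 other sensors and factors, CREB3 fell by 0.18 ± 0.05. Of 19 cytosolic aminoacyl-tRNA synthetases, which charge tRNAs and include many ATF4 targets, AARS1 fell by 0.24 ± 0.05 and CARS1 fell by 0.18 ± 0.05. In the p50/RelA KD a single synthetase was called, WARS1, which interferon also induces, and it fell by 0.21 ± 0.05 (adjusted p = 0.0457).

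In the remaining list, of 15 other amino acid stress genes tested in the p52/RelB KD, 4 fell and 1 rose. CTH, which makes cysteine from cystathionine, fell by 0.50 ± 0.09, and DDIT4 (REDD1), an inhibitor of mTORC1, fell by 0.90 ± 0.10. VEGFA fell by 0.39 ± 0.05 and the death receptor TNFRSF10B fell by 0.20 ± 0.04. GDF15, a stress-induced cytokine, rose by 0.29 ± 0.07. Of 24 other ER folding and degradation genes, the oxidases ERO1A and ERO1B, which drive disulfide formation, fell by 0.40 ± 0.06 and 0.77 ± 0.08. None of these genes was called in the p50/RelA KD.

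VEGFA and DDIT4 are also induced by hypoxia, and both are on a list of hypoxia and glycolysis genes that moved in the same arrays. In the p52/RelB KD, 15 of the 19 tested were called lower, VEGFA and DDIT4 among them, against 5.75% of all clusters. The 19 genes had a median of -0.39 and replicate means of -0.54, -0.44 and -0.47. Their mean level per array ranged from 9.96 to 10.52 in the controls and from 9.55 to 9.99 in the KD. In the p50/RelA KD none of the 19 was called, and the replicate means were -0.20, -0.14 and 0.16. The part of that list in the calls of the stress genes was not tested.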

How the data were processed

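Log2 expression values of 24 arrays were taken as the authors deposited them. Per the labels and the study's methods they came from RMA, which corrects background, quantile-normalizes and summarizes probes. No RMA version is stated in the sources used here. RMA understates large differences and makes no detection calls. Precision is limited by the number of arrays. Scan batches followed the replicates in experiment 1, and in experiment 2 replicate 3 had a batch of its own.

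Each KD was compared with its own controls with lmFit and eBayes of limma 3.58.1 under R 4.3.3. Sequences were pooled and the replicate was a block. Values were not adjusted further. Clusters with exactly 1 symbol in the platform annotation were tested unless below 6 in 50% or more of the 12 arrays, 14672 in experiment 1 and 16101 in experiment 2. Where a gene had several clusters, the one with the highest mean over all arrays was used. The minimum difference of 10% is 0.14 on the log2 scale. The 2 KD effects were compared in 1 fit over all 24 arrays, blocked by replicate within experiment. The median SE over all clusters was 0.0476 in experiment 1 and 0.0536 in experiment 2.

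Control and KD means of the same replicate deviated together across clusters, at correlations of 0.448, 0.195 and 0.251 in experiment 1 and 0.574, 0.268 and 0.377 in experiment 2, so replicates were paired. The sources used here do not say if samples of a replicate were cultured separately, and p-values therefore measure the spread between these arrays, which may be technical. Members, lists and the rule for named genes (members called in either KD or differing between KDs, with ATF4) were chosen with earlier results of these data known, and genes set beside them below the threshold were chosen after their values were seen. The fit was tested on simulated data. Promoter windows came from RefSeq; protein sequences were not used here.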

Additional observations from a re-analysis of the deposited data

Results flagged for a closer look

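SLC7A5 stood out because its KD effects differed between the experiments, by -0.24 (p52/RelB minus p50/RelA).

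Of 160 groups of 6 arrays (40 members in 4 arms), 16 held an array far from the other 5, where chance gives about 1 in 20 groups. The p52/RelB KD had 9 of the 16, and all 9 came from replicate 3. In sequence 2 of that replicate, DNAJB9 (7.54), DNAJC3 (8.77), HSP90B1 (11.87) and XPOT (10.68) were lowest, and ERN1 (8.79) and PHGDH (7.62) were highest. In sequence 1 of replicate 3, MTHFD2 (11.74), SESN2 (9.30) and SLC7A11 (8.38) were highest. None of the 7 called members was among them.

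In the p50/RelA KD, HYOU1 was lowest in sequence 1 of replicate 2 (10.81) and PPP1R15A was highest in sequence 2 of replicate 3 (9.64). In the controls of experiment 1, CRELD2 was lowest in sequence 1 of replicate 2 (7.68), DNAJC3 and HSPA5 were lowest in sequence 2 of replicate 1 (8.90 and 12.74), and SLC38A2 was lowest in sequence 1 of replicate 3 (11.61). In the controls of experiment 2, EDEM1 was highest in sequence 2 of replicate 1 (9.53).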

How the results depend on the processing

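The p52/RelB KD called 7 members lower. With no replicate block the count was 4, with KD sequence 2 alone 4, with the sequences averaged within arm and replicate 3, and by the methods' t-test on deposited values 4. Leaving out a replicate or a single array gave 2 to 9 (3 without replicate 1, 2 without replicate 2). SLC7A5 and HERPUD1 were called in all 27 alternatives, ATF5 in 25, DDIT3 and HYOU1 in 23 each, SEL1L in 11 and CEBPG in 9, and no difference of these 7 changed sign. Calls of CEBPG and SEL1L were lost in 9 of 12 fits without a single array each. Without p52/RelB KD sequence 2 of replicate 3, which stood apart, the 7 calls stayed and PSAT1 (0.23, adjusted p = 0.0057) and SDF2L1 (0.18, adjusted p = 0.0312) were called higher. PSAT1 was called higher in 5 alternatives, KD sequence 1 alone (0.28) among them.

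The p50/RelA KD called none of the members. The paired fits without single arrays gave 0 to 1, where PPP1R15A was called without control sequence 2 (adjusted p = 0.0193) or KD sequence 2 (adjusted p = 0.0484) of replicate 3. It was the 1 member called with a stricter filter at 7, with further quantile normalization and with a trended and robust prior, over an adjusted p range of 0.0192 to 0.527, and DNAJB9 was the 1 member called when the methods' t-test was run after adjustment for replicate.

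Members with different KD effects numbered 1 in the fit with the block, 0 with no replicate block (SLC7A5, adjusted p = 0.116), and between 1 and 2 without single arrays, SDF2L1 being added without p52/RelB KD sequence 2 of replicate 3. ATF4 turned from -0.02 to 0.28 in its other cluster, an alternative chosen after seeing the data, as was the test of clusters with several symbols, which kept 7 and 0 calls. Quantile normalization moved the median of all clusters by under 0.1. For lost calls the cause was not tested.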
